A study of Mus musculus with 24 samples.

Results

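Pik3ap1 encodes BCAP, a cytoplasmic adaptor protein, and was selected on its array signal, which was higher in GPR120 knockout (KO) than in wild-type (WT) tissue, in epididymal adipose tissue and in liver. It is 1 of 18193 mouse genes with an array probe set of their own, and it is read by 2 of the 45037 probe sets. The genotype differences of Pik3ap1 are therefore descriptions and carry no p-value. Its responses to diet and its difference between tissues were not compared in the choice and were tested. These tests use the same samples as the choice, so they are not independent of it.

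BCAP is a scaffold for phosphoinositide 3-kinase (PI3K). In B cells, tyrosine kinases downstream of the antigen receptor phosphorylate it, and the phosphorylated tyrosines recruit the regulatory subunits of PI3K, which places the kinase at the membrane and activates AKT. It also carries a Toll/interleukin-1 receptor (TIR) domain, links Toll-like receptors to PI3K, and is made by B cells, macrophages and other myeloid cells. The deleted gene, Ffar4, encodes GPR120, a receptor for long-chain fatty acids.

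The study held 12 mice, 6 on each diet, and each mouse gave an epididymal adipose and a liver sample, each on its own array. The 8 groups of 3 mice were GPR120 KO on high-fat diet (HFD), WT on HFD, GPR120 KO on normal diet (ND) and WT on ND, in adipose tissue and in liver. All mice, KO and WT, had a mixed 129/Sv and C57BL/6 genetic background. The labels describe the deletion no further and give no age, litter or length of feeding. The limma p-values set each difference against the spread between the 3 mice of a group, pooled over all groups of the fit.

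Signals are in arbitrary intensity units of the MAS5 algorithm, with array medians of 13.4 to 25.7. A gene was tested where its mean was at least that of the median probe set of the tissue, a signal of 19.3 in adipose tissue and 13.0 in liver, which left 11589 and 11029 genes. Adipoq, the adipocyte hormone adiponectin, read 3800 to 7424 in adipose tissue and 1.29 to 27.4 in liver. Alb, the hepatocyte product albumin, read 83.5 to 2435 in adipose tissue and 9314 to 14141 in liver. The single Ffar4 probe set averaged 26.7 ± 3.68 in KO and 131.6 ± 37.4 in WT adipose tissue on HFD, and 34.5 ± 1.06 in KO and 64.6 ± 8.07 in WT adipose tissue on ND (SD, n = 3 each). In liver, where Ffar4 lay below the filter, it ran the other way: it read 13.5 to 18.3 in KO and 0.55 to 1.63 in WT livers on HFD. The position of its probes with respect to the deletion was not analysed here, so the liver labels cannot be checked with it.

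Other tissue in the samples moved with diet. Lcn5, an epididymal epithelial gene, read 0.3 to 7.83 in adipose samples on HFD and 6230 to 10683 in those on ND. The adipose sample of mouse 427 (KO, HFD) held the epithelial keratin Krt19 at 406, and that of mouse 547 (WT, HFD) held muscle myoglobin, Mb, at 950. Prm1, a testis gene, read 4371 and 4617 in the adipose samples of mice 686 and 690 (WT, ND). It read 451.3 in that of mouse 687 (WT, ND) and 205.0 to 366.4 in KO adipose samples on ND.

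The probe set that stands for Pik3ap1, 1429831_at, was the brighter of its pair. On all 24 arrays it lay above the floor set for each tissue, 1.08 in adipose tissue and 1.1 in liver. That floor is a low percentile of the signals and not a limit of detection. The mean of 1429831_at lay at percentile 72.8 of all probe sets in adipose tissue and at percentile 91.6 in liver. In adipose tissue on HFD it read 594.6, 588.4 and 1007 in the 3 KO mice and 32.8, 26.5 and 31.7 in the 3 WT mice. Every KO sample was above every WT sample, as was so for 18.3% of all genes, and mouse 429 was the highest. The means were 730.0 ± 240 in KO and 30.3 ± 3.36 in WT (SD, n = 3 each), and the fitted log2 difference was 4.55 ± 0.21 (SE), a fold of 23.4. By this difference Pik3ap1 ranked 2 of the 11589 genes tested.

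On ND both genotypes were lower in adipose tissue. The KO samples read 87.1, 81.6 and 80.1 and the WT samples 18.9, 21.8 and 23.7. Each of these WT signals lay below the median of its own array, which was 25.6, 23.18 and 25.67 in the same order. All KO samples were again above all WT samples, as for 16.1% of genes, and the KO samples lay close together. The means were 82.9 ± 3.69 in KO and 21.5 ± 2.40 in WT (SD, n = 3 each), a log2 difference of 1.95 ± 0.21 (SE) and a fold of 3.87.

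In liver Pik3ap1 read 1338, 1336 and 1523 in KO mice on HFD, and 99.6, 143.4 and 145.1 in WT mice on HFD. The means were 1399 ± 108 in KO and 129 ± 25.8 in WT (SD, n = 3 each), a log2 difference of 3.45 ± 0.18 (SE) and a fold of 11.0. On ND the KO livers read 1165, 914.9 and 1031, and the WT livers 98.6, 143.0 and 96.5. The means were 1037 ± 125 in KO and 113 ± 26.3 in WT (SD, n = 3 each), a log2 difference of 3.22 ± 0.18 (SE) and a fold of 9.31. All KO livers were above all WT livers on both diets, as for 13.8% of genes on HFD and 11% on ND. By log2 difference Pik3ap1 ranked 11 on HFD and 5 on ND among the 11029 genes tested in liver.

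**Figure D1:**
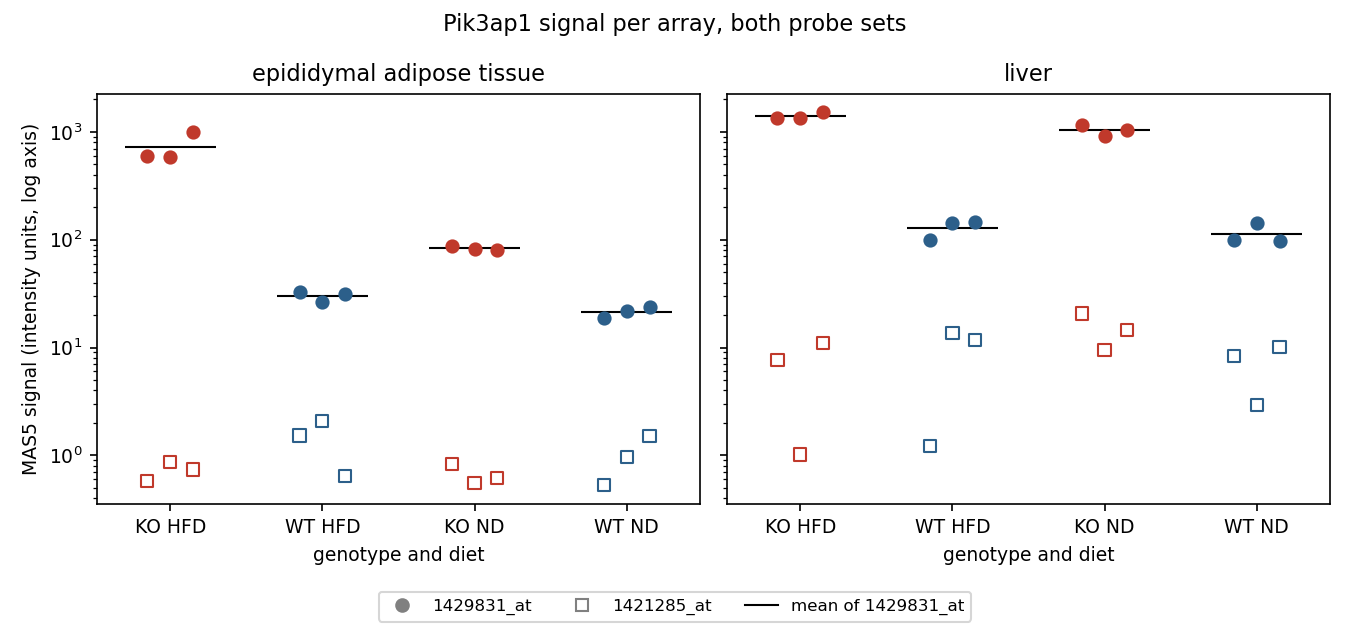
Signal of the 2 Pik3ap1 probe sets on each array (y axis, MAS5 intensity units, log axis) by genotype and diet (x axis), in adipose tissue (left) and liver (right), KO in red and WT in blue. Filled circles are 1429831_at with the group mean as a line, open squares are 1421285_at. The circles of KO and WT samples are apart in all 4 pairs of groups, with KO means of 730.0, 82.9, 1399 and 1037 against WT means of 30.3, 21.5, 129 and 113, while the squares stay at or below 20.65 and overlap.

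Ordered by mean signal, the 8 groups ran from KO liver on HFD at 1399, through KO liver on ND at 1037, KO adipose tissue on HFD at 730.0, WT liver on HFD at 129, WT liver on ND at 113, KO adipose tissue on ND at 82.9 and WT adipose tissue on HFD at 30.3, to WT adipose tissue on ND at 21.5. 2 pairs of neighbours in that order overlapped: KO liver on ND with KO adipose tissue on HFD, and WT liver on HFD with WT liver on ND. The widest step between neighbours was from KO adipose tissue on HFD to WT liver on HFD, where the means differed 5.64-fold. In bulk tissue a change in the number of cells that make a transcript and a change in RNA per cell cannot be told apart.

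The other Pik3ap1 probe set, 1421285_at, was dim, and its KO and WT groups overlapped throughout. It was designed from a RefSeq mRNA of the gene, whereas 1429831_at was designed from an expressed sequence tag. In adipose tissue 1421285_at ranged between 0.53 and 2.09 with a median of 0.785, and 9 of 12 samples lay under that floor, a signal of 1.08. In liver it ranged between 1.02 and 20.65 with a median of 9.81. It passed the filter in neither tissue. On HFD its log2 difference of means between KO and WT was -0.48 in adipose tissue and -0.36 in liver. On ND it was -0.16 in adipose tissue and 1.17 in liver. The Pik3ap1 values given here thus rest on a single probe set, and where either probe set lies on the transcript was not analysed here.

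In KO adipose tissue Pik3ap1 was higher in the HFD samples than in the ND samples. There the mean was 730.0 on HFD and 82.9 on ND, a log2 difference of 3.09 ± 0.21 (SE, limma adjusted p = 2.04e-06, n = 3 each), or 8.52-fold, with a 95% interval of 2.64 to 3.54. All 3 HFD samples were above all 3 ND samples. The macrophage level, the median signal of a list of macrophage genes on each array, was 9.04-fold higher on HFD in these samples, and with it as a covariate the difference was 2.04 ± 0.78 (SE) and no longer passed (limma adjusted p = 0.395). The macrophage levels of the diets did not overlap in KO, so diet and macrophage level cannot be told apart by this fit. In that comparison 48.6% of the genes tested passed in either direction, 22.1% higher and 26.6% lower on HFD, and 62.1% had diet groups that did not overlap. In WT adipose tissue the mean was 30.3 on HFD and 21.5 on ND, 1.41-fold apart. The groups did not overlap, but the log2 difference of 0.50 ± 0.21 (SE, n = 3 each) missed the threshold (limma adjusted p = 0.0588), with an interval of 0.05 to 0.95. It passed after quantile normalization, at 0.93 (limma adjusted p = 0.00176), and without mice 427 and 547, at 0.59 (limma adjusted p = 0.0495). With the macrophage level as a covariate it was -0.023 (limma adjusted p = 0.98), again with the macrophage levels of the diets apart. Here 55.3% of genes passed, 27.9% higher and 27.5% lower, and 61.2% had groups that did not overlap.

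The diet comparison in adipose tissue carried other changes. Of 13 epididymis and testis genes tested, 0 were higher and 11 lower on HFD in KO, and 0 higher and 13 lower in WT. The part of that tissue in the Pik3ap1 values was not tested. Actb, whose array probes at its 3' and 5' ends report RNA quality, also differed between the genotypes. In adipose tissue on HFD its log2 ratio of the 3' over the 5' signal was 0.73 ± 0.10 in KO and 1.44 ± 0.28 in WT. On ND it was 0.80 ± 0.07 in KO and 0.90 ± 0.02 in WT (SD, n = 3 each). KO and WT adipose samples were apart in this ratio on both diets, at 0.62 to 0.80 against 1.13 to 1.68 on HFD. The ND samples read 0.72 to 0.85 in KO and 0.88 to 0.92 in WT. In liver the ratio was 1.70 ± 0.01 in KO and 2.04 ± 0.05 in WT on HFD, which were apart. On ND the liver ratio was 1.29 ± 0.05 in KO and 1.18 ± 0.07 in WT, which overlapped (SD, n = 3 each). Its part in the results was not tested.

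In liver neither diet response of Pik3ap1 passed. In KO livers the mean was 1399 on HFD and 1037 on ND, and the samples of the diets were apart. The log2 difference was 0.44 ± 0.18 (SE, limma adjusted p = 0.109, n = 3 each), or 1.35-fold, with an interval of 0.06 to 0.82. It passed when only the arrays of these 2 groups were fitted (limma adjusted p = 0.0227), and averaging both probe sets turned it to -0.61 (limma adjusted p = 0.508). In this comparison 16.8% of the genes passed and 38.8% had groups that did not overlap. In WT livers the means were 129 on HFD and 113 on ND and the samples overlapped. The log2 difference was 0.20 ± 0.18 (SE, limma adjusted p = 0.498, n = 3 each), with an interval of -0.18 to 0.58, against 12.8% of genes passing and 29% with groups that did not overlap. Whether the diet response differs between the genotypes was not tested, since the genotype contrasts were used to choose the gene.

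Pik3ap1 was lower in adipose tissue than in the liver of mice of the same genotype and diet, in all 4 pairs of groups and with no overlap. The smallest difference was in KO mice on HFD, with 730.0 in adipose tissue and 1399 in liver, a log2 difference of -0.98 ± 0.20 (SE, limma adjusted p = 0.000163, n = 3 each). The others were -2.08 in WT on HFD (limma adjusted p = 7.65e-09), -3.64 in KO on ND (limma adjusted p = 1.28e-12) and -2.37 in WT on ND (limma adjusted p = 1.17e-09), each ± 0.20. As folds, the liver signal was 1.98, 4.22, 12.5 and 5.18 times that of adipose tissue in these 4 groups. The tissues differed widely: of the 10019 genes tested in both, 25.7%, 26.1%, 23.5% and 25.6% passed as lower in adipose tissue in these 4 groups, and 27.2%, 27.8%, 27.4% and 26.1% had all adipose samples below all liver samples.

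Because Pik3ap1 is a myeloid gene, its signal was set beside that of macrophages on the same array. The macrophage level of an array was the median log2 signal of the genes of a 43-gene macrophage list that were tested, 39 in adipose tissue and 38 in liver. Written back as a signal, it was 807.9, 776.3 and 1457 in the 3 KO adipose samples on HFD and 207.4, 374.4 and 236.6 in the 3 WT samples. The 2 groups were apart, and mouse 429 was again the highest. On ND it was 104.1, 98.1 and 121.3 in KO and 82.0, 91.3 and 94.7 in WT adipose tissue, also apart but closely spaced. The KO level was 3.68 times the WT level on HFD and 1.2 times on ND.

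In KO adipose tissue the macrophage level was 9.04-fold higher on HFD than on ND and Pik3ap1 8.52-fold, while in WT adipose tissue the macrophage level was 2.96-fold higher on HFD and Pik3ap1 1.41-fold. The WT mouse with the highest macrophage level on HFD, mouse 547, had the lowest Pik3ap1 signal of its group, 26.5. The WT samples on HFD had macrophage levels of 207.4 and above with Pik3ap1 at 32.8 or below. The KO samples on ND had macrophage levels of 121.3 or below with Pik3ap1 at 80.1 and above.

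The difference between log2 Pik3ap1 and the log2 macrophage level sets arrays of a tissue against each other, and is not a level of the gene. In adipose tissue it was -0.46 ± 0.07 in KO and -3.13 ± 0.61 in WT on HFD, and -0.37 ± 0.19 in KO and -2.06 ± 0.06 in WT on ND (SD, n = 3 each). The KO and WT samples stayed apart on both diets, which is a description only, since Pik3ap1 was chosen for its genotype differences. Relative to the macrophage level, Pik3ap1 was 6.36 times as high in KO as in WT on HFD and 3.22 times as high on ND. Between the diets it overlapped within KO and was lower on HFD within WT, at 0.477 of the ND value.

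Liver macrophage levels spanned less. They were 191.0, 147.2 and 139.4 in KO and 113.8, 131.7 and 110.5 in WT livers on HFD, and 88.3, 110.1 and 78.6 in KO and 105.7, 86.4 and 74.2 in WT livers on ND. The genotypes were apart on HFD, with a fold of 1.33, and overlapped on ND, with a fold of 1.04. Relative to the macrophage level, Pik3ap1 was 8.22 times as high in KO as in WT livers on HFD and 8.95 times on ND. The KO and WT livers did not overlap in this measure on either diet. As the gene was chosen for its genotype differences, this gap and these folds are descriptions only.

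**Figure D2:**
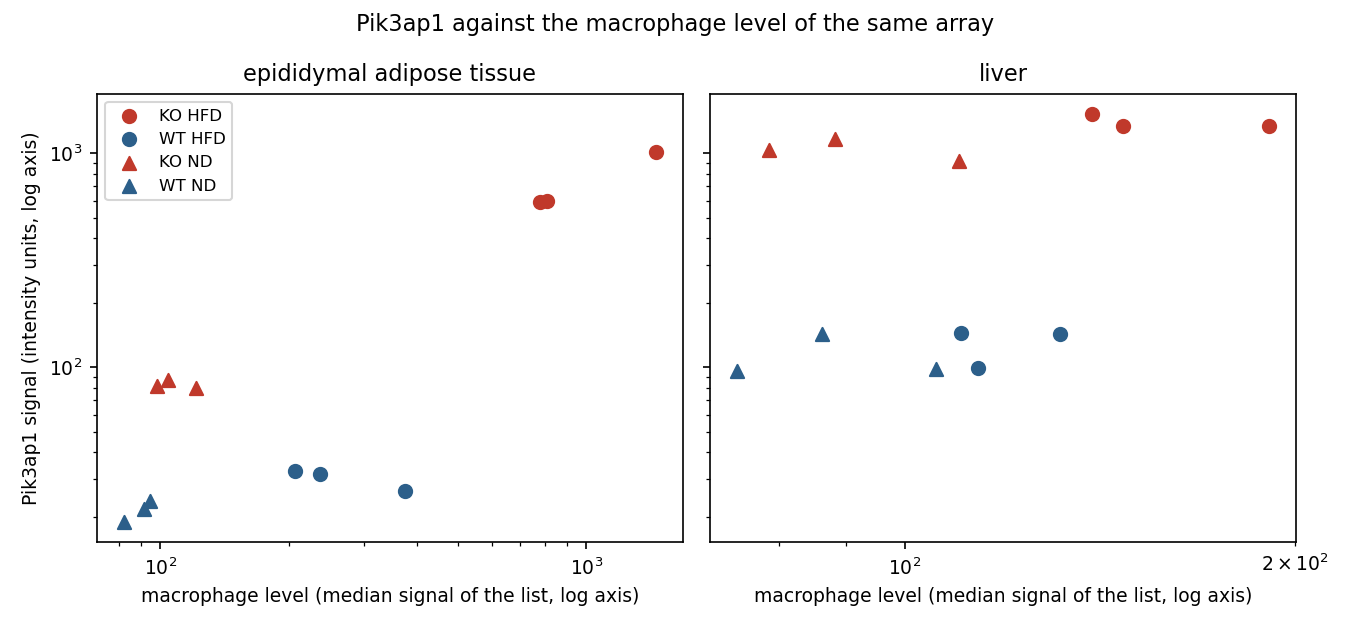
Pik3ap1 signal (y axis, log axis) against the macrophage level of the same array (x axis, median signal of the macrophage list, log axis) in adipose tissue (left) and liver (right); each point is 1 array, circles are HFD and triangles ND, KO in red and WT in blue. WT adipose samples on HFD lie to the right of KO samples on ND and below them. In liver KO samples lie above WT samples on both diets, with macrophage levels that overlap on ND and are apart on HFD.

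With the macrophage level as a covariate of the fit, the log2 difference of Pik3ap1 between KO and WT adipose tissue was 3.92 ± 0.49 on HFD and 1.86 ± 0.20 on ND (SE). In liver it was 3.52 on HFD and 3.23 on ND. The macrophage levels of KO and WT did not overlap in adipose tissue on either diet, nor in liver on HFD. In those comparisons genotype and macrophage level cannot be told apart by this fit. Within groups, the deviations of Pik3ap1 and of the macrophage level from their group means showed no relation that the test could tell from none. In adipose tissue Pearson's r was 0.463 and Spearman's rho 0.294 over 12 arrays (exact permutation within groups, two-sided p = 0.439 and 0.492, adjusted over the 2 tissues 0.691 and 0.918). Without the arrays of mice 429 and 547, r was 0.379, without mouse 429 alone it was -0.514, and without mouse 547 alone it was 0.896, so the value and its sign depend on these mice. In liver r was -0.150 and rho 0.042 (exact permutation p = 0.691 and 0.918, adjusted 0.691 and 0.918), and r was 0.0329 without the arrays of mice 427 and 719. The 1296 permutations could give a p as small as 0.000772.

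Macrophage genes rose together in KO adipose tissue on HFD. Of the 39 tested, 32 were higher and 1 lower in KO than in WT, where 11% of all genes were higher and 11.3% lower. Their median log2 difference was 1.55, against -0.03 over all genes. Adgre1, the macrophage surface protein F4/80, read 1096, 1267 and 2243 in KO and 220.6, 420.0 and 317.5 in WT samples, a log2 difference of 2.24 ± 0.28 (SE, limma adjusted p = 0.000744). Cd68, a lysosomal protein of macrophages, rose by 2.28 ± 0.36, and Cybb, the phagocyte oxidase subunit, by 2.05. Csf1r, the receptor for macrophage colony-stimulating factor, rose by 0.47 ± 0.14. The 1 gene that fell was Cd163, the haemoglobin scavenger receptor. None of the 39 had a larger log2 difference than the 4.55 of Pik3ap1, and the highest among them was Cd84 at 3.26. Pik3ap1 was chosen for its genotype differences. Its place above list genes between KO and WT, on either diet and in either tissue, is therefore a description only.

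On ND the same list showed little in adipose tissue. By limma 1 of 39 genes was higher and 0 lower in KO, with 14 at an unadjusted p under 0.05, where 0.216% of all genes were higher in KO and 0.0345% were lower. The gene that rose was Cd209g, a lectin, by 3.57, the only list gene with a larger difference than the 1.95 of Pik3ap1. The list median was 0.48, against 0.07 over all genes. Adgre1 averaged 111.2 ± 25.2 in KO and 84.1 ± 6.69 in WT (SD, n = 3 each), a log2 difference of 0.38 ± 0.28 (SE) that did not pass.

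In liver on HFD, 10 of 38 macrophage genes were higher and 1 lower in KO, where 3.76% of all genes were higher and 2.97% lower. The list median was 0.69, against -0.02 over all genes. Cd68 averaged 139.5 ± 31.1 in KO and 69.1 ± 8.70 in WT (SD, n = 3 each), a log2 difference of 0.998 ± 0.19 (SE, limma adjusted p = 0.00919). The others that rose included the leukocyte glycoprotein Cd52, by 1.38, and the leukocyte phosphatase Ptprc, by 0.86, and the gene that fell was Cd163, by 0.82. The highest list value was that of Itgax, the integrin CD11c, at 1.47, below the 3.45 of Pik3ap1. Leaving out 1 mouse at a time moved the count of 10 to between 2 and 9, with 2 without mouse 427, 3 without mouse 546, 4 without mouse 428 and 5 without mouse 560.

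In liver on ND, 0 of 38 macrophage genes were higher and 1 lower in KO by limma, with 7 at an unadjusted p under 0.05, where 2.28% of all genes were higher and 2.49% lower. The list median was -0.19, against -0.05 over all genes. The gene that fell was Ctss, the protease cathepsin S, by 0.42. The highest value was that of Itgax at 0.89, while Pik3ap1 differed by 3.22.

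Kupffer cells are the resident macrophages of the liver. By limma 0 of 10 of their genes passed in either direction between KO and WT livers on HFD, with 1 at an unadjusted p under 0.05, where 6.74% of all genes passed. Their median log2 difference was 0.20, and 7 of 10 were above 0. On ND 0 rose and 1 fell, Clec1b, by 0.62, where 4.78% of all genes passed, and the median was -0.15. Clec4f, a lectin receptor of Kupffer cells, read 530.1, 221.7 and 461.8 in KO and 422.4, 518.3 and 483.8 in WT livers on HFD. These groups overlapped, and the log2 difference of -0.32 ± 0.25 (SE) was the lowest of the list.

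Between the diets most macrophage genes in WT adipose tissue and in KO liver had larger differences than Pik3ap1. In KO adipose tissue 34 of 39 list genes were higher and 1 lower on HFD, where 22.1% of all genes were higher and 26.6% lower. Their median log2 difference was 2.83, and 14 had a larger difference than the 3.09 of Pik3ap1. In WT adipose tissue 33 were higher and 2 lower, where 27.9% of all genes were higher and 27.5% lower, with a median of 1.73, and 34 had a larger difference than the 0.50 of Pik3ap1. In KO livers 28 of 38 were higher and 1 lower, with a median of 1.10, where 9.38% of all genes were higher and 7.46% lower, and 33 exceeded the 0.44 of Pik3ap1. In WT livers 5 were higher and 2 lower, where 6.74% of all genes were higher and 6.11% lower, and 20 exceeded the 0.20 of Pik3ap1. The comparisons share groups of samples, so these values stand side by side and are not independent.

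**Figure D3:**
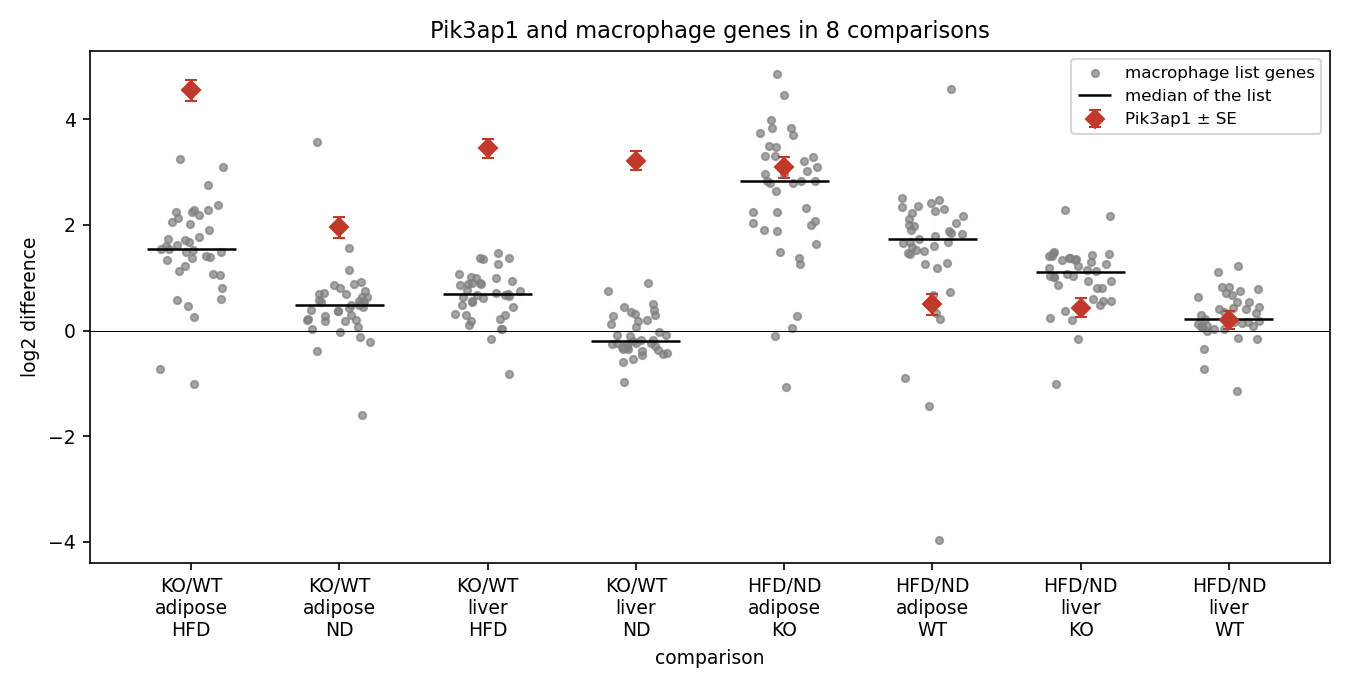
Log2 difference (y axis) of Pik3ap1 with its SE (red diamonds) and of each macrophage list gene tested (grey points, line at the list median) in 8 comparisons (x axis, KO over WT and HFD over ND). Pik3ap1, at 4.55, 1.95, 3.45 and 3.22, lies above the list medians of 1.55, 0.48, 0.69 and -0.19 between genotypes, and at 0.50 and 0.44 it lies below the medians of 1.73 and 1.10 for diet in WT adipose tissue and KO liver. The gene was chosen for its genotype differences, so its place above the medians between genotypes is a description only.

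Lipid-associated macrophages take up lipid in obese adipose tissue. Of 17 of their genes tested in adipose tissue on HFD, 10 were higher and 0 lower in KO, where 11% of all genes were higher and 11.3% lower, with a median log2 difference of 1.03. Atp6v0d2, a lysosomal proton pump subunit, rose by 3.65, Gpnmb, a transmembrane glycoprotein, by 2.91 and Trem2, a lipid-sensing receptor, by 2.69. On ND none of the 17 passed by limma, with 3 at an unadjusted p under 0.05, where 0.25% of all genes passed. In liver 4 of 15 rose and 0 fell on HFD, where 3.76% of all genes were higher and 2.97% lower. On ND 2 of 15 rose and 1 fell, where 2.28% were higher and 2.49% lower. Cd36, a fatty acid transporter on hepatocytes and macrophages, was among those that rose on both diets.

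B cells are the other main source of BCAP. Of 7 B cell genes tested in adipose tissue on HFD, 4 were higher and 0 lower in KO, where 11% of all genes were higher: Cd72, Cd22, Btk and Blnk. Cd72, an inhibitory co-receptor, rose by 3.69 (limma adjusted p = 0.000243). The defining B cell marker Cd79a, a chain of the antigen receptor, averaged 6.15 ± 5.49 in KO and 4.85 ± 6.01 in WT (SD, n = 3 each). Ms4a1, which encodes CD20, averaged 60.5 ± 56.9 in KO and 42.1 ± 51.9 in WT, and Bank1, a scaffold of B cells, had a log2 difference of 0.06 ± 0.40 (SE). On ND 0 of 7 passed by limma, with 2 at an unadjusted p under 0.05, where 0.25% of all genes passed. In liver 1 of 8, Cd72, rose on HFD by 1.23, where 3.76% of all genes were higher. On ND 0 of 8 passed by limma, with 0 at an unadjusted p under 0.05, where 4.78% of all genes passed. The part of B cells in the Pik3ap1 signal was not tested.

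Of 9 kinases and partners that act with BCAP, 4 were higher and 0 lower in KO adipose tissue on HFD, where 11% of all genes were higher and 11.3% lower, with a median log2 difference of 0.38. Syk, the kinase that follows antigen and Fc receptors, rose by 1.79 ± 0.37 (SE, limma adjusted p = 0.00654), Btk, a kinase next in that pathway, by 1.78, and Plcg2, the phospholipase they activate, by 0.91. Blnk, the adaptor that joins Syk to Btk, read 897.7, 879.1 and 1387 in KO and 191.3, 252.7 and 239.1 in WT samples and rose by 2.19 ± 0.20 (SE, limma adjusted p = 0.000196). Btk and Blnk are in the B cell list as well. On ND in adipose tissue, and in liver on HFD and on ND, 0 of 9 passed by limma, with 2, 1 and 1 at an unadjusted p under 0.05, where 0.25%, 6.74% and 4.78% of all genes passed. In liver on HFD the log2 difference of Syk was 0.40 ± 0.34 and that of Blnk 0.00 ± 0.41 (SE).

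Of 17 core genes of the PI3K enzymes and their downstream kinases tested in adipose tissue on HFD, 2 were higher and 5 lower in KO, where 11% of all genes were higher and 11.3% lower, with a median log2 difference of -0.26. Those that rose were Pik3r5, a regulatory subunit of the leukocyte enzyme PI3K gamma, by 1.43, and Inpp5d, the lipid phosphatase SHIP1, by 1.40. Those that fell were Akt2, by 0.81, the regulatory subunit Pik3r3, by 0.89, the AKT-activating kinase Pdpk1, by 0.61, Mtor, by 0.51, and Rictor, a subunit of the mTOR complex that phosphorylates AKT, by 0.55. The leukocyte catalytic subunit Pik3cd had a log2 difference of -0.29 ± 0.22, and the widely expressed Pik3ca of -0.28 ± 0.14 (SE), and neither passed. On ND none of the 17 passed by limma, where 0.25% of all genes did, with 2 at an unadjusted p under 0.05. In liver 0 rose and 2 fell of 15 on HFD, Pik3ca by 0.55 and Rictor by 0.53, where 3.76% of all genes were higher and 2.97% lower. On ND 0 rose and 1 fell, Pik3cd, by 0.54, where 2.28% of all genes were higher and 2.49% lower.

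Other adaptors that bring PI3K to receptors went both ways in adipose tissue on HFD. Of 9 tested, 3 were higher and 2 lower in KO, where 11% of all genes were higher and 11.3% lower. Hcst, the adaptor DAP10 of natural killer and myeloid receptors, rose by 1.72, Grb2 by 1.02 and Cbl by 0.76. The insulin receptor substrates Irs1 and Irs2 fell, by 1.25 and by 1.06. On ND 0 of 9 passed by limma, with 2 at an unadjusted p under 0.05, where 0.25% of all genes passed. In liver 0 of 8 passed by limma on either diet, with 0 on HFD and 1 on ND at an unadjusted p under 0.05, where 6.74% and 4.78% of all genes passed.

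Of 17 genes of Toll-like receptors and their signalling, 5 were higher and 0 lower in KO adipose tissue on HFD, where 11% of all genes were higher and 11.3% lower, with a median log2 difference of 0.06. The 5 were the receptors Tlr13, by 2.90, Tlr1, by 2.29, Tlr2, by 1.30, and Tlr7, by 1.02, with the co-receptor Cd14, by 1.72. The adaptors that bind the TIR domains of these receptors did not pass: Myd88 had a log2 difference of 0.06 ± 0.15 and Tirap of -0.03 ± 0.19 (SE). On ND 0 of 17 passed by limma, with 4 at an unadjusted p under 0.05, where 0.25% of all genes passed. In liver 0 rose and 1 of 14 fell on HFD, Tirap, by 0.64, where 2.97% of all genes were lower. On ND 0 of 14 passed by limma, with 1 at an unadjusted p under 0.05, where 4.78% of all genes passed.

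Other cell types also moved in KO adipose tissue on HFD. All 11 endothelial genes tested and 4 of 10 adipocyte genes were lower in KO and none of either list was higher, where 11% of all genes were higher and 11.3% lower. Of the leukocyte lists, 1 of 4 neutrophil genes rose, 1 of 5 dendritic cell genes rose and 1 fell, and 0 of 2 T and natural killer cell genes rose and 1 fell. Their part in the Pik3ap1 result was not tested.

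The genes whose pattern was most like that of Pik3ap1 were not macrophage list genes. Over the 24 arrays, with each tissue's mean removed, the highest Pearson r among 10018 genes was that of Vamp3, a vesicle fusion protein, at 0.913, followed by Rer1 at 0.868, Efhd2 at 0.859, Ube2v2 at 0.855, Arpc5 at 0.848 and Pdcd10 at 0.844. Vamp3, Rer1 and Efhd2 lie on chromosome 4, Ube2v2 on 16, Arpc5 on 1 and Pdcd10 on 3. The likeness rests on genotype and diet groups that all these genes share, so r has no p and is a description. The most alike macrophage gene, Ms4a7, had an r of 0.778 and rank 32, and the list median was 0.60, against -0.06 over all genes.

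The genotype differences of Vamp3 were smaller than those of Pik3ap1. In adipose tissue on HFD it read 1388, 1863 and 1811 in KO and 761.5, 671.9 and 611.3 in WT, a log2 difference of 1.30 ± 0.21 (SE), against 4.55 for Pik3ap1. In liver on HFD it read 301.5, 250.2 and 258.7 in KO and 83.5, 122.6 and 104.0 in WT, a log2 difference of 1.40 ± 0.25 (SE), against 3.45. In both tissues the KO and WT samples were apart. Efhd2, a calcium-binding protein of leukocytes and other cells, differed more, by 3.24 ± 0.21 in adipose tissue and 2.45 ± 0.28 in liver on HFD (SE). On ND neither gene passed in either tissue. Vamp3 differed there by 0.75 ± 0.21 in adipose tissue and 0.77 ± 0.25 in liver (SE, limma adjusted p = 0.151 and 0.0917). Efhd2 differed on ND by 0.65 ± 0.21 in adipose tissue and 0.35 ± 0.28 in liver (SE, limma adjusted p = 0.212 and 0.505).

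Within a tissue the most alike genes differed. Over the 12 adipose arrays they were Stxbp3 (r 0.959), Rasa1 (0.956), Lum (0.952) and Ptgfrn (0.950), and over the 12 liver arrays Cd36 (0.966), Cyp2c38 (0.966), Aldh1a7 (0.954) and Ces1g (0.952). Of the liver genes, Cyp2c38 and Aldh1a7 lie on chromosome 19, as Pik3ap1 does, Cd36 on 5 and Ces1g on 8. Of the adipose genes, Stxbp3 and Ptgfrn lie on chromosome 3, Rasa1 on 13 and Lum on 10. The adipose r of Lum, an extracellular matrix proteoglycan, stands beside a liver r of -0.64. The macrophage list had a median r of 0.77 in adipose tissue, where its highest member, Fcgr1, ranked 102, and of 0.31 in liver, where Itgax ranked 600. Cd36 read 915.3, 814.7 and 930.0 in KO and 122.3, 185.3 and 120.6 in WT livers on HFD, and 676.3, 495.0 and 630.5 in KO and 162.7, 109.8 and 181.8 in WT livers on ND. As with Pik3ap1, the KO livers were apart from the WT livers on both diets. In adipose tissue on HFD the Cd36 log2 difference was -0.17 ± 0.18 (SE), and the groups overlapped.

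Pik3ap1 and Ffar4 lie on the same chromosome, 19, with 32 measured genes between them in the order of the RefSeq annotation of GRCm38.p6. In adipose tissue 16 of these were tested: 2 were higher and 2 lower in KO on HFD, against 22.2% of all genes called in either direction. On ND 0 were called, with 3 at an unadjusted p under 0.05, against 0.25% of all genes. In liver 23 were tested, of which 2 were higher and 3 lower on HFD, against 6.74% of all genes, and 2 higher and 2 lower on ND, against 4.78%. Among them were genes of the Cyp2c family of drug and fatty acid oxidases. Cyp2c39 rose by 7.89 on HFD and 5.50 on ND, and Cyp2c38 rose by 2.86 on HFD and 2.04 on ND. Cyp2c37 fell by 5.74 on HFD and 5.92 on ND. Cyp2c genes are related in sequence, and some of their probe sets may share signal, which was not analysed here.

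Of the 10 measured genes nearest to Pik3ap1, 5 on each side, 4 were tested in adipose tissue. On HFD 3 of them passed, against 22.2% of all genes: Blnk rose by 2.19, Arhgap19 rose by 0.95 and Lcor, a transcriptional corepressor, fell by 0.68. On ND 0 of 4 passed by limma, with 1 at an unadjusted p under 0.05, against 0.25% of all genes. In liver 6 were tested and 0 passed by limma on either diet, with 2 at an unadjusted p under 0.05 on each, against 6.74% of all genes on HFD and 4.78% on ND. The nearest measured gene on one side, Tm9sf3, had log2 differences of -0.13 on HFD and 0.09 on ND in adipose tissue and of 0.28 on HFD and 0.30 on ND in liver, none of which passed. On the other side Lcor had -0.02 in adipose tissue on ND, and -0.08 on HFD and 0.35 on ND in liver.

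**Figure D4:**
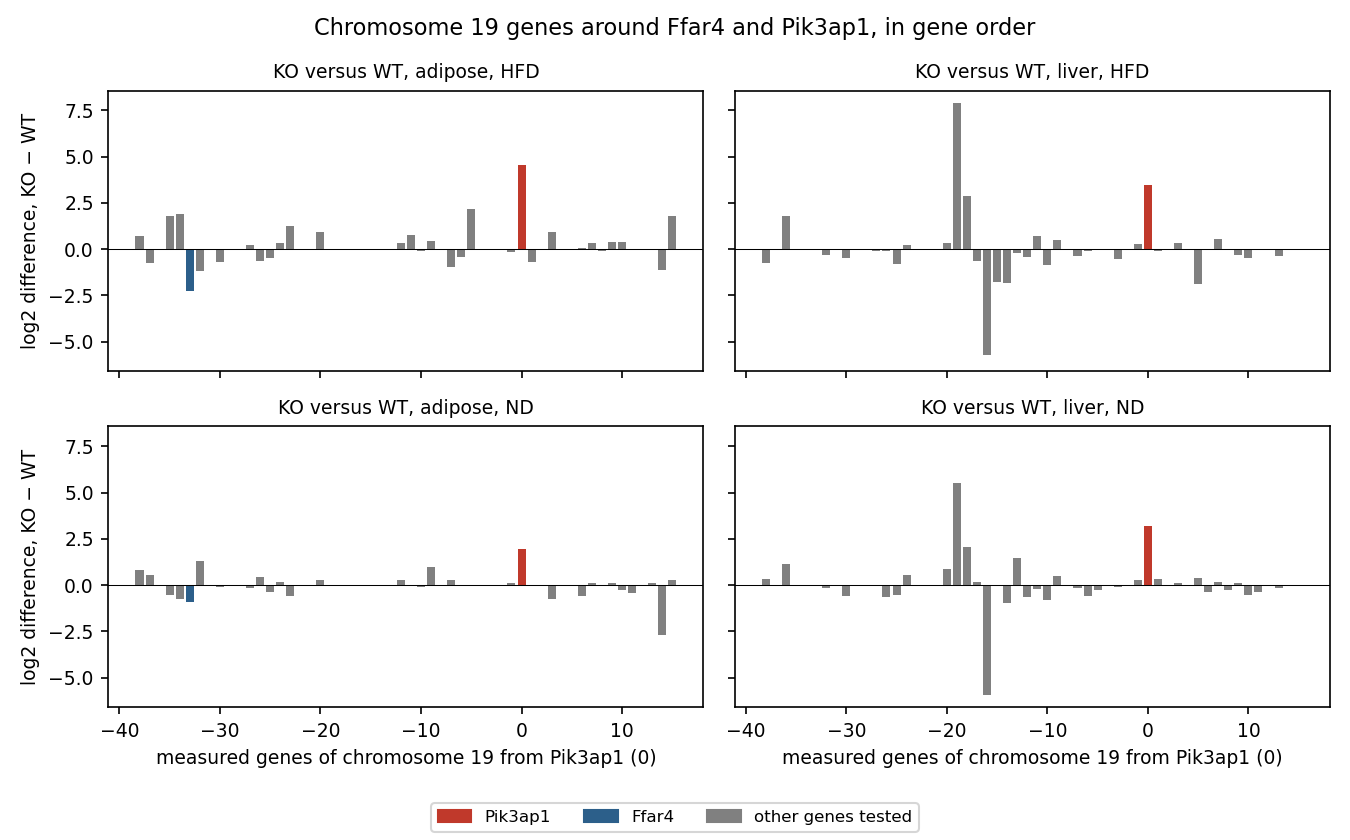
Log2 difference between KO and WT (y axis) of the tested genes of chromosome 19 in gene order, counted in measured genes from Pik3ap1 (x axis), in adipose tissue (left) and liver (right), on HFD (top) and ND (bottom). Pik3ap1 (red) stands at 4.55 and 1.95 in adipose tissue and 3.45 and 3.22 in liver, its 2 nearest measured genes lie between -0.68 and 0.35, and Ffar4 (blue) was tested in adipose tissue only.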

How the data were processed

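Total RNA was labelled with biotin and hybridised to 24 Affymetrix arrays. The deposited values are linear signal intensities from MAS5, per the submitters' processing notes; the version and scaling target are not given in the sources used here. The mean of each array after trimming 2% at each end was 100.03 to 100.051. Of 45101 rows 64 controls were left out; 34945 probe sets had 1 gene symbol in the platform annotation, 932 several and 9160 none. Within a group, arrays correlated at Spearman's rho 0.889 to 0.964. A floor was set at the 10th percentile of each tissue, a signal of 1.08 in adipose tissue and 1.1 in liver, before the log2 transform. The brightest probe set stood for a gene.

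Each tissue was fitted over its 12 arrays with limma 3.58.1 in R 4.3.3 (lmFit, eBayes with a trend), and tissues were compared over all 24 arrays. Genes were called at a Benjamini-Hochberg adjusted p under 0.05. The number of arrays limits the precision. The fit was tested on simulated data. Named genes are Pik3ap1, Ffar4, the 6 genes most alike over both tissues, the 4 in each tissue, listed genes and those called in small counts; the last, and the highest value of a list, were chosen after their values were seen. The gene, the lists and the tests were chosen with earlier results of these data known.

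The mouse pairs the 2 tissues. Same-mouse deviations correlated at 0.0326 to 0.125, over 0.1 in 4 of 12 mice. Alternatives were another floor, filter, normalization, probe set rule, covariate and set of arrays, and leaving out each mouse. Gene names are those of the platform annotation, and list genes it does not name were not analysed here.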

Additional observations from a re-analysis of the deposited data

How the results depend on the processing

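All values rest on 3 arrays per group and 1 probe set. Of the 235 recomputed values, 207 stayed the same by the rule for their kind. A test had to keep its direction and side of the threshold. A genotype difference had to keep its direction and move by less than the spread between replicates. A count of macrophage genes had to stay near the main count. With the mouse as a replicate block, the tissue differences had limma adjusted p of 0.000109, 4.20e-09, 6.60e-13 and 6.22e-10, and no call changed. Averaging both probe sets gave KO against WT log2 differences of 2.03 (adipose, HFD), 0.89 (adipose, ND), 1.55 (liver, HFD) and 2.20 (liver, ND), and turned the diet difference in KO liver to -0.61 (limma adjusted p = 0.508). The macrophage covariate gave 3.92 for adipose tissue on HFD and diet differences of 2.04 (limma adjusted p = 0.395) in KO and -0.023 (limma adjusted p = 0.98) in WT adipose tissue. Quantile normalization gave 2.15 for adipose tissue on ND and 0.93 for diet in WT adipose tissue (limma adjusted p = 0.00176), a call also made without mice 427 and 547 (0.59, limma adjusted p = 0.0495). Fitted on its 2 groups alone, the diet difference in KO liver, 0.44, passed (limma adjusted p = 0.0227). The count of macrophage genes higher in KO liver on HFD, 10, was 5 with no filter, 4 with averaged probe sets and 4 with no variance trend; that in adipose tissue on ND, 1, was 2 after quantile normalization and 0 without mice 686 and 690. The cause of these changes was not tested. Leaving out 1 mouse at a time gave KO against WT log2 differences of 4.29 to 4.68 (adipose, HFD), 1.87 to 2.03 (adipose, ND), 3.28 to 3.55 (liver, HFD) and 3.12 to 3.40 (liver, ND). It gave diet differences of 2.84 to 3.22 (KO adipose), 0.41 to 0.59 (WT adipose, not called in any), 0.35 to 0.52 (KO liver) and 0.10 to 0.39 (WT liver). The within-group r ranged between -0.514 and 0.896 in adipose tissue and between -0.379 and 0.0108 in liver. The macrophage count ranged between 28 and 34 (adipose, HFD), 0 and 2 (adipose, ND), and 2 and 9 (liver, HFD); that of adipose tissue on ND was 0 without mouse 686, 718 or 720 and 2 without mouse 687.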
